A study of Mus musculus with 6 samples.

Results

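The receptors described here are 10 mouse genes that encode the type I receptors Bmpr1a, Bmpr1b, Acvr1, Acvr1b and Tgfbr1, the type II receptors Bmpr2, Acvr2a, Acvr2b and Tgfbr2, and the co-receptor Tgfbr3. They were found by matching the mouse Ensembl identifiers of the files to these 10 symbols, among 41388 genes in all. All 10 passed the filter on low counts, which left 14958 genes for testing. The RNA came from dorsal root ganglion (DRG) cells of C57BL/6 mouse embryos at 18.5 dpc (days post coitum), taken at spinal levels T11 to S1 and sorted by flow cytometry for a Ret reporter that produces the green fluorescent protein EGFP. Ret is the receptor tyrosine kinase of the GDNF family ligands and marks part of the sensory neurons.

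The groups were 3 female libraries (A, B and C) and 3 male libraries (A, C and D). Every embryo carried the reporter, written Tg(Ret-EGFP)SJ in the genotype label, whereas the series text places EGFP in the Ret locus of heterozygotes. The number of intact Ret alleles is therefore not settled, and cells without EGFP were not analysed here. Each library was a pool. Female A combined 60 ganglia from 3 embryos, and 20 ganglia from 1 embryo went into each of female B and C. Male A combined 60 ganglia from 3 embryos, and 40 ganglia from 2 embryos went into each of male C and D. The embryos of female A and of male C had 2 mothers. Female B and female C are recorded in a different form from the others and are called the second record set.

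In this receptor family a dimeric ligand brings type II receptors, whose kinase is always active, together with type I receptors. The type II kinase phosphorylates the type I receptor, which then phosphorylates receptor-regulated Smad proteins that act in the nucleus with Smad4. Bmpr1a, Bmpr1b and Acvr1 signal to Smad1, Smad5 and Smad9, while Acvr1b and Tgfbr1 signal to Smad2 and Smad3. Bmpr2 serves BMPs, Acvr2a and Acvr2b serve activins as well as many BMPs and GDFs, and Tgfbr2 serves TGF-beta ligands. Tgfbr3, also called betaglycan, has no kinase and presents TGF-beta2 and inhibin. In rat DRG cultures, activin and BMPs are known to increase the number of neurons that make the neuropeptide CGRP.

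The choice of Smad by a type I receptor is set largely by the L45 loop, a short surface loop of the kinase domain. The coding stretch around this loop is shown for the 5 type I receptors because it separates Bmpr1a and Bmpr1b from Acvr1b and Tgfbr1. Acvr1, counted here with the BMP branch by its Smads, has a loop unlike both pairs. Sequences are from GENCODE M21 transcripts, 5′ to 3′ on the coding strand, with the 24 bases of the loop in capitals.
Bmpr1a: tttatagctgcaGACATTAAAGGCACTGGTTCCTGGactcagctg
Bmpr1b: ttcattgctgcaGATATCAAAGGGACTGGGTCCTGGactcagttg
Acvr1: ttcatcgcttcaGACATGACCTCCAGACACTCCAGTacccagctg
Acvr1b: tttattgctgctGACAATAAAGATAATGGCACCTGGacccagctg
Tgfbr1: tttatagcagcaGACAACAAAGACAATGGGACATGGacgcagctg
The stretch lies at chr14:34422811-34422855 for Bmpr1a (exon 10 of 13), chr3:141856600-141856644 for Bmpr1b (exon 8 of 11) and chr2:58463110-58463154 for Acvr1 (exon 10 of 13), all in GRCm38 on the minus strand. In Acvr1b (chr15:101198993-101202000) and Tgfbr1 (chr4:47396564-47402825), both on the plus strand, it begins in exon 4 of 9 and an intron splits it. Acvr1b and Tgfbr1 shared 20 of 24 loop bases, and all 8 codons encoded the same residues. The same counts, 20 of 24 bases and 8 of 8 codons, held for Bmpr1a and Bmpr1b. Between these pairs, 4 of 8 codons encoded the same residue, and the Acvr1 loop shared 1 or 2 of 8 with the others.

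Depth was similar across libraries, with 17861500 to 29330101 counts each, and a gene with no count could still have stood at up to 0.0950 to 0.166 CPM, taken as 3 counts. CPM are counts scaled to library size with TMM factors. This limit covers counting error only, since the cDNA was amplified and molecules were not tagged. The 12 sensory neuron markers were all detected, led by Stmn2 at 5300.1 ± 791 CPM and Tubb3 at 4468 ± 1029 CPM (SD, n = 6), and Ret averaged 24.7 ± 3.70 RPKM. RPKM is the CPM per kilobase of the deposited gene length. The sum of 4 Y-linked genes separated the labelled sexes, at 0.320 to 0.831 CPM in female and 103.4 to 326 CPM in male libraries. Such a sum cannot show that a male pool held no female cells. The library labelled male C also held 1860 counts of Xist, the X-inactivation RNA made in female cells. Its Xist level was 58.9 CPM, while male A had 0.418 CPM and male D 0.576 CPM. Whether the male C pool mixed the sexes was not tested, and its label was kept. Male A stood apart in markers of other cells. Its summed fibroblast and meningeal markers were 2884.9 CPM, against 576 to 678 CPM in the other 5 libraries, and 9 of 10 were highest there. Satellite glia and Schwann cell markers summed to 2588 CPM in male A, against 1199 to 1328 CPM elsewhere, with 8 of 12 highest there. No marker of these lists was at 0 in all 6 libraries. In sorted bulk RNA, fewer cells with a transcript and less transcript per cell cannot be told apart.

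Receptors of each class were present at low to moderate levels. Per length, the order over 6 libraries was Bmpr2, Bmpr1a, Acvr2a, Tgfbr1, Tgfbr3, Acvr1b, Acvr1, Acvr2b, Bmpr1b and Tgfbr2. Bmpr2, at 9.30 ± 3.98 RPKM (SD, n = 6), lay at percentile 67.6 of the tested genes by mean RPKM, and Tgfbr2, at 0.695 ± 0.573 RPKM, at percentile 16.9. By the deposited lengths, the 10 fall into 3 ranges. Bmpr2, Bmpr1a, Acvr2a, Tgfbr1, Tgfbr3 and Acvr1b had means of 4.67 to 9.30 RPKM, Acvr1 stood alone at 2.35 ± 0.176 RPKM, and Acvr2b, Bmpr1b and Tgfbr2 had means of 0.695 to 1.03 RPKM. Within-library differences of log2 RPKM (pseudocount 0.1) were tested for all 45 pairs by an exact two-sided sign-flip permutation test. With 6 libraries the smallest possible p is 0.03125. The 29 pairs in one order in all 6 libraries reached it, with a Benjamini-Hochberg adjusted p of 0.0485. The count is fragile, because with the longest annotated transcript as the length 28 pairs kept one order and 0 passed the adjusted threshold.

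Of the 9 pairs of neighbours in this order, 2 differed. Acvr1b was above Acvr1 in 6 of 6 libraries by 0.95 ± 0.30 on the log2 RPKM scale, and Acvr1 was above Acvr2b in 6 of 6 by 1.13 ± 0.13 (SD; exact p = 0.03125, adjusted p = 0.0485 for each). With the longest transcript as the length, Acvr1 rises to 3.45 RPKM, beside Acvr1b at 4.66 RPKM, and lies above Acvr1b in female C. The other 7 neighbours did not pass the adjusted threshold. Acvr2b was above Bmpr1b in 5 of 6 libraries by 0.48 ± 0.46 (exact p = 0.0625, adjusted p = 0.0907). Bmpr2 and Bmpr1a differed by 0.21 ± 0.58, with Bmpr2 higher in 4 of 6 libraries (adjusted exact p = 0.469). Tgfbr3 and Acvr1b differed by 0.11 ± 0.53, with Tgfbr3 higher in 2 of 6 (adjusted exact p = 0.863). Without male A, 39 of 45 pairs kept one order in the remaining libraries, a smaller set of libraries in which a single order is easier to keep.

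**Figure D1:**
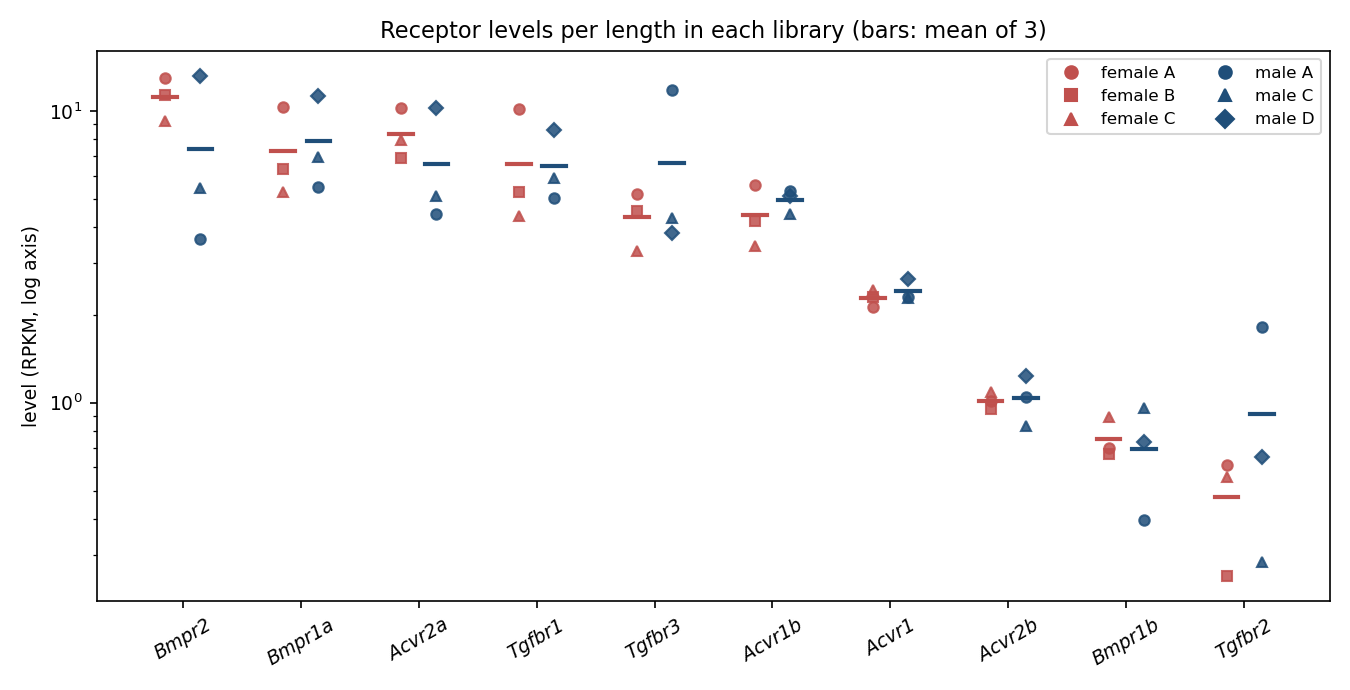
Levels of the 10 receptors in RPKM on a log axis, ordered by their mean over 6 libraries; each point is a library, female left of male, and each bar the mean of 3 libraries. Bmpr2 to Acvr1b overlap at 3.30 to 13.2 RPKM, Acvr1 is the tightest at 2.13 to 2.65 RPKM, and Tgfbr2 in male A, at 1.81 RPKM, stands above the other 5 libraries.

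Among type I receptors of the BMP branch, Bmpr1a (ENSMUSG00000021796, chromosome 14, 34410734 to 34503341, minus strand, GRCm38) was the most abundant per length. Bmpr1a stood at 10.3, 6.30 and 5.27 RPKM in female A, B and C, against 5.49, 6.95 and 11.2 RPKM in male A, C and D. Female A and male D were the highest libraries, and the sexes overlapped across the range. Bmpr1b (ENSMUSG00000052430, chromosome 3, 141837136 to 142169425, minus strand), a receptor best known from cartilage and the ovary, had 0.697, 0.669 and 0.891 RPKM in female A, B and C, against 0.395, 0.956 and 0.732 RPKM in male A, C and D. Its 45 to 180 counts per library place every library above the counting limit, with male A lowest. Acvr1 (ENSMUSG00000026836, chromosome 2, 58388644 to 58567157, minus strand), a BMP and activin-binding receptor also called ALK2, had 2.13, 2.31 and 2.43 RPKM in female A, B and C, against 2.31, 2.28 and 2.65 RPKM in male A, C and D. It varied least of the 10, with a coefficient of variation of 7.48% and the highest library 1.25 times the lowest. Of its 4829 deposited bases, 1536 lie outside the longest GENCODE M21 transcript.

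In the activin and TGF-beta branch, Tgfbr1 (ENSMUSG00000007613, chromosome 4, 47353222 to 47414931, plus strand), the type I partner of Tgfbr2, had 10.1, 5.26 and 4.37 RPKM in female A, B and C, against 5.02, 5.88 and 8.57 RPKM in male A, C and D. As for Bmpr1a, female A and male D were the highest libraries. Acvr1b (ENSMUSG00000000532, chromosome 15, 101174067 to 101213679, plus strand), the main activin type I receptor, had 5.55, 4.19 and 3.43 RPKM in female A, B and C, against 5.32, 4.43 and 5.09 RPKM in male A, C and D. Its libraries lay closer together, with a coefficient of variation of 17.1%, and female C was lowest. The BMP branch (Acvr1, Bmpr1a and Bmpr1b) made up 48.9 ± 3.27% of the summed type I RPKM (SD, n = 6), with a range of 44.2% to 52.4%.

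Of the type II receptors, Bmpr2 (ENSMUSG00000067336, chromosome 1, 59763400 to 59879014, plus strand) had the highest level and a wide spread. Bmpr2 stood at 13.0, 11.3 and 9.26 RPKM in female A, B and C, against 3.65, 5.45 and 13.2 RPKM in male A, C and D. Male A and male C were the lowest libraries and male D the highest, so the sexes overlapped through male D alone. The deposited Bmpr2 model is 17983 bases long, of which 5084 lie outside the longest GENCODE M21 transcript, and with that transcript as the length the mean is 13.0 RPKM. Acvr2a (ENSMUSG00000052155, chromosome 2, 48814109 to 48903269, plus strand), an activin receptor that also binds BMPs, had 10.2, 6.92 and 7.95 RPKM in female A, B and C, against 4.42, 5.10 and 10.3 RPKM in male A, C and D. The order of libraries was close to that of Bmpr2, with male A and male C lowest and male D highest. Together Bmpr2 and Acvr2a held 89.2 ± 7.64% of the summed type II RPKM (SD, n = 6), from 73.9% in male A to 93.8% in female B.

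Acvr2b and Tgfbr2 were low. Acvr2b (ENSMUSG00000061393, chromosome 9, 119402444 to 119433501, plus strand), the close relative of Acvr2a, had 1.02, 0.948 and 1.09 RPKM in female A, B and C, against 1.04, 0.831 and 1.23 RPKM in male A, C and D. The sexes overlapped, at 30 to 46 counts per library. Tgfbr2 (ENSMUSG00000032440, chromosome 9, 116087698 to 116175363, minus strand), the type II receptor for TGF-beta ligands, had 0.611, 0.255 and 0.555 RPKM in female A, B and C, against 1.81, 0.285 and 0.652 RPKM in male A, C and D. Male A, with 166 counts, held 3.85 times the mean of the other 5 libraries, which had 22 to 65 counts. Tgfbr2 was therefore 16.6% of the summed type II RPKM in male A and 1.31% to 2.94% in the others. The deposited gene model covers 57.9% of the longest Tgfbr2 transcript and 52.9% of the longest Acvr2b transcript in GENCODE M21, so 3405 and 1494 bases of those transcripts were not counted. Dividing the same counts by the longest transcript puts Acvr2b at 0.567 RPKM, below Bmpr1b at 0.806 RPKM. Reads on the uncounted bases are missing from those counts, so the Acvr2b value and its rank are no alternative estimate of its level.

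Tgfbr3 (ENSMUSG00000029287, chromosome 5, 107106570 to 107289629, minus strand) had 5.19, 4.53 and 3.30 RPKM in female A, B and C, against 11.8, 4.29 and 3.81 RPKM in male A, C and D. Male A was 2.78 times the mean of the other 5 libraries, which overlapped between the sexes. This co-receptor made up 28.5% of the summed RPKM of all 10 genes in male A and 6.64% to 11.8% in the others. A transcript of Gm43422 matches 5.01% of the Tgfbr3 transcript at 95% identity or more, and whether it is a separate copy was not checked. Markers of several other cell types were also highest in male A, beside Tgfbr2 and Tgfbr3. Of the fibroblast and meningeal markers, Col1a2, a collagen gene, was at 771 CPM there and at most 109.5 CPM in the others. Endothelial and pericyte markers summed to 107.8 CPM in male A, against 45.1 to 83.7 CPM in the others, with 9 of 10 highest there. The sums of macrophage and immune markers were 14.1 CPM in male A and 7.49 to 11.8 CPM in the others, with 7 of 9 highest there. The part of fibroblast, glial, endothelial or immune cells in the Tgfbr2 and Tgfbr3 levels was not tested.

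Set side by side, type I receptors held 47.6 ± 5.01%, type II receptors 39.9 ± 8.68% and Tgfbr3 12.5 ± 8.05% of the summed RPKM (SD, n = 6). The summed type II level divided by the summed type I level was 0.860, 1.04 and 1.15 in female A, B and C, against 0.590, 0.569 and 0.897 in male A, C and D. Male A and male C were lowest, and female A was below male D, so the sexes overlapped.

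**Figure D2:**
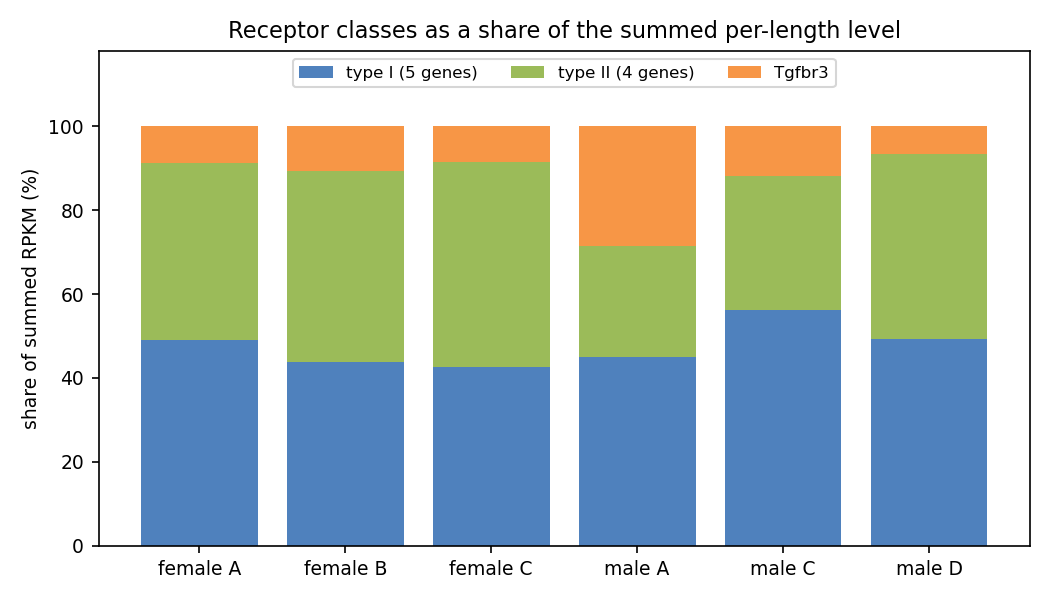
Share of the summed RPKM of the 10 receptors taken by type I receptors, type II receptors and Tgfbr3 in each library, in percent, female libraries left of male ones. Type I receptors took 42.5% to 56.2%, and Tgfbr3 was 28.5% in male A against at most 11.8% in the other libraries.

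The receptors differed widely in how far the libraries diverged, and male A, which stood apart in markers of other cells, was among those libraries. The SD of log2 CPM over 6 libraries (prior count 2) had a median of 0.36 over all tested genes, and 7 of 10 receptors were above it. Tgfbr2 had the widest spread, at 0.99, followed by Bmpr2 at 0.75 and Tgfbr3 at 0.65, while Acvr1 was at 0.11 and Acvr2b at 0.18. Without male A the coefficient of variation fell from 82.5% to 39.8% for Tgfbr2, 42.8% to 30.7% for Bmpr2 and 57.3% to 16.9% for Tgfbr3. It went from 7.48% to 8.27% for Acvr1 and from 13.1% to 14.7% for Acvr2b. Bmpr1a, Tgfbr1, Acvr2a and Bmpr2 each had female A and male D as their highest libraries, a pair of libraries picked after these values were seen. The same held for 1802 of 14958 tested genes, or 12.0%. The deposited lengths of these 4 receptors were 5686 to 17983 bases. A library index, the median centred log2 CPM of genes of at least 6000 bases minus that of genes under 2000 bases, was 0.34, -0.12 and -0.06 in female A, B and C, against -0.43, 0.11 and 0.12 in male A, C and D. Female A was highest and male A lowest, and the part of this length difference in the receptor levels was not tested.

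**Figure D3:**
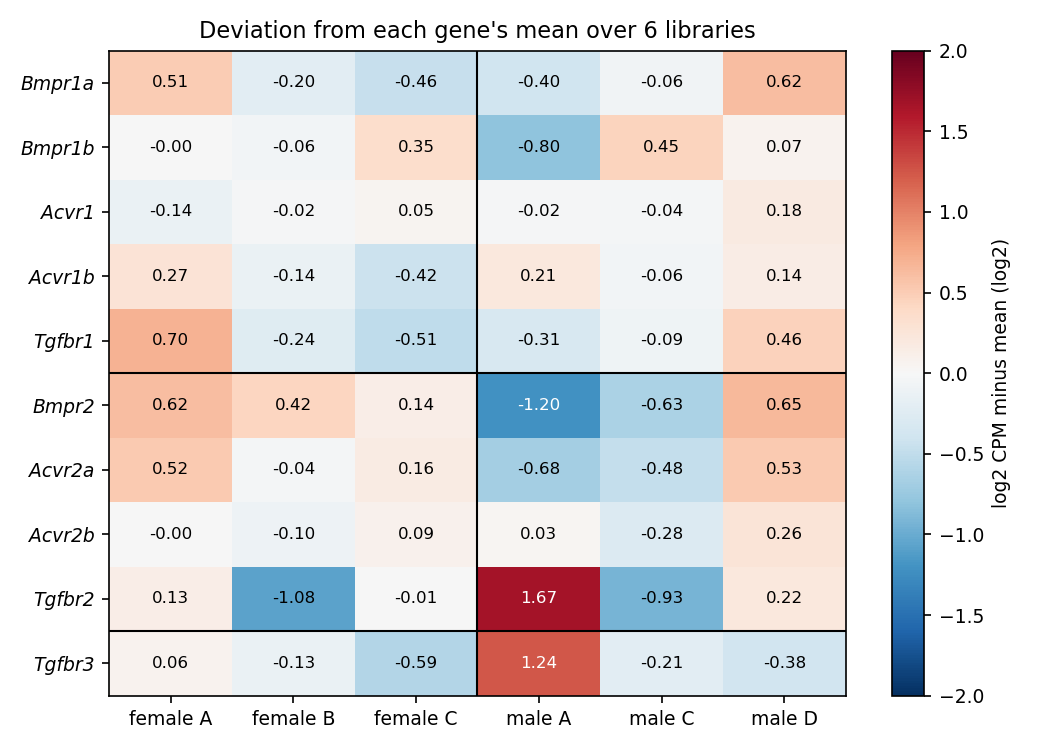
Deviation of each receptor in each library from its own mean log2 CPM over 6 libraries, on the log2 scale, with female libraries left of male ones; lines separate type I, type II and co-receptor. Bmpr2 and Acvr2a are low in male A (-1.20 and -0.68) and male C (-0.63 and -0.48), whereas Tgfbr2 and Tgfbr3 are high in male A (1.67 and 1.24).

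Promoters of the receptors were searched for GC boxes, the letters GGGCGG on either strand and a known site of Sp-family factors. Windows of 300 bases, most of them upstream of a RefSeq start (GRCm38.p6), were matched for 9 of the 10 genes, at 12 starts. Some windows lie wholly inside the deposited gene and do not cover its 5′ end. A GC box was in 7 of 9 genes and 7 of 12 starts, and in 35.7% of all 32851 windows. The receptor windows held a median of 25 CpG pairs, against 7 over all windows. Bmpr1b and Tgfbr2 had no GC box in any window. The Bmpr1b windows reach no further than chr3:141982514, whereas the deposited gene begins at 142169425 on the minus strand. The 5′ end of the deposited Bmpr1b gene was therefore not searched. The windows of Bmpr2 and Acvr2a, whose levels followed each other across libraries, and of Tgfbr2 are shown 5′ to 3′ on the gene's strand with each GC box in capitals.
Bmpr2: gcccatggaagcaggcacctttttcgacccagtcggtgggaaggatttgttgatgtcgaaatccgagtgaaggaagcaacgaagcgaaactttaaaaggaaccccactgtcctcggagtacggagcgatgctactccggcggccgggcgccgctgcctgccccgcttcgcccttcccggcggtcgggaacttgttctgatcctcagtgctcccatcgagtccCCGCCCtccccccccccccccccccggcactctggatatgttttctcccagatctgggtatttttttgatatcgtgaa
Acvr2a: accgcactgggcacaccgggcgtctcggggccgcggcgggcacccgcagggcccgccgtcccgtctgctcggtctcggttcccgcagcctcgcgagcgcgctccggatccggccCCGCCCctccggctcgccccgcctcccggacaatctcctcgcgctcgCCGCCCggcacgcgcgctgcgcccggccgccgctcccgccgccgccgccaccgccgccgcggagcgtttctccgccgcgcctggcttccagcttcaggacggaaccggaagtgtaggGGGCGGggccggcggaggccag
Tgfbr2: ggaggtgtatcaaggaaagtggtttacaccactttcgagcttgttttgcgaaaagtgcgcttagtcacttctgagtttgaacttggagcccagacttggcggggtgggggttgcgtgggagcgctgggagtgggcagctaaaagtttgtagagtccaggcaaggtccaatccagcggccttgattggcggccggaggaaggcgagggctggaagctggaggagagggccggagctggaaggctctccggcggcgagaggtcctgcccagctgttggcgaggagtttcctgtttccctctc
They lie at chr1:59764029-59764328 (Bmpr2, plus strand, 1 GC box), chr2:48813859-48814158 (Acvr2a, plus strand, 3 GC boxes) and chr9:116175314-116175613 (Tgfbr2, minus strand). The Bmpr2 window lies inside the deposited gene, which begins at 59763400. Tgfbr2 held 2 CCAAT boxes (CCAAT on either strand), letters found in 37.4% of all windows. A CCAAT box was also not particular to Tgfbr2, with 4 of 9 receptor genes and 5 of 12 starts holding one. A Tgfbr1 window held 2 CCAAT boxes beside 2 GC boxes. The Tgfbr2 window had 15 CpG pairs, against 54 for Acvr2a and 23 for Bmpr2. A match of letters is not evidence of binding.

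The sexes were compared with the edgeR quasi-likelihood test over all 14958 genes. Of the 10 receptors, 0 passed an adjusted p of 0.05, where 0.0267% of all tested genes did, and DESeq2 and limma voom also called 0. At an unadjusted p under 0.05, 0 of 10 receptors passed, where 4.42% of genes did. The 3 libraries of one sex lay above all 3 of the other for 0 of 10 receptors, where this held for 8.06% of genes. Adjusted p ran from 0.961 to 0.997 and 4 of 10 log2 changes (female minus male) were positive. Their median was -0.05, against -0.0036 over all genes.

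The intervals leave room for sizeable differences. Bmpr2 averaged 201 ± 33.4 CPM in female and 134 ± 91.1 CPM in male libraries (SD, n = 3 each), a log2 change of 0.59 (SE 0.42, 95% interval -0.35 to 1.53, edgeR adjusted p = 0.961). That change was 0.26 without male A, 0.41 without male C and 1.30 without male D, -0.25 without male A and male C, and 0.80 within the first record set. Acvr2a had a log2 change of 0.34 (SE 0.33, interval -0.40 to 1.08), and 0.12 without male A, 0.19 without male C, 0.81 without male D, -0.31 without male A and male C, and 0.63 within the first record set.

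Tgfbr2 and Tgfbr3 had the most negative changes. Tgfbr2 averaged 2.27 ± 0.917 CPM in female and 4.39 ± 3.82 CPM in male libraries, a log2 change of -0.94 (SE 0.64, interval -2.38 to 0.51, edgeR adjusted p = 0.961). Tgfbr3 averaged 28.4 ± 6.27 CPM in female and 43.3 ± 29.2 CPM in male libraries, a log2 change of -0.61 (SE 0.42, interval -1.55 to 0.33, edgeR adjusted p = 0.961). Without male A the log2 change was 0.04 for Tgfbr2 and 0.10 for Tgfbr3. Without male C it was -1.37 for Tgfbr2 and -0.84 for Tgfbr3. Without both, where male D is the only male library, it was -0.46 for Tgfbr2 and 0.18 for Tgfbr3.

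The type I receptors had log2 changes between -0.17 (Acvr1b) and 0.11 (Bmpr1b). Acvr1 had the narrowest interval, -0.59 to 0.44 around -0.08, and Acvr2b among the type II receptors stood at -0.02 (interval -0.85 to 0.81). Within the first record set, where female A is the only female library, Tgfbr1 was at 0.64, Bmpr1a at 0.39 and Acvr1b at 0.17, against 0.02, -0.11 and -0.17 over all 6 libraries. Without female A, Tgfbr1 was at -0.43 and Bmpr1a at -0.45, and without male C Tgfbr1 was at -0.05.

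**Figure D4:**
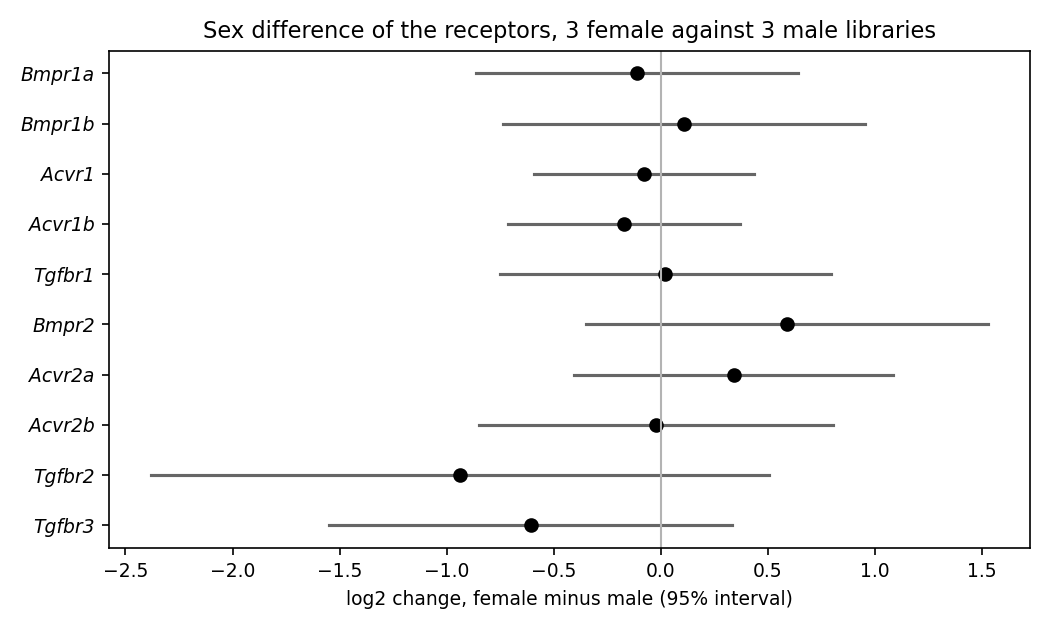
Log2 change, female minus male, of each receptor with its 95% interval from the edgeR fit on 3 female and 3 male libraries, ordered by type I, type II and co-receptor. All 10 intervals include 0, from -0.94 (Tgfbr2) to 0.59 (Bmpr2).

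The genes whose profile over the 6 libraries was most like that of each receptor were taken by Pearson r of log2 CPM among tested genes of at least 5 CPM, with no test, since each point shares its library and depth with the other. Bmpr2 was most like Smim13 (r = 0.999), a small membrane protein gene, and Mapk8 (r = 0.996), which encodes the kinase JNK1. The kinase gene Clk4 (r = 0.991) was among the genes most like Acvr2a. Tgfbr1 was most like Lmbr1 and 9330182L06Rik, and Bmpr1a most like an identifier without a symbol and Mtx3. Tgfbr2 was most like Col8a1 (r = 0.998), a collagen gene, and Fbrs, and Tgfbr3 most like Olfml1 (r = 0.995) and Tm7sf3. Acvr1 was most like Ndufa1 and 5430405H02Rik, Acvr1b like Sema4d and Arhgef2, Acvr2b like Celf4 and Nadk2, and Bmpr1b like 2700049A03Rik and Chd2. Each was among the best of 10476 or 10477 candidates over only 6 points, and the values say nothing of shared function or control.

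Other genes of the pathway were taken from 6 lists of ligands, antagonists, receptors, Smads and targets, and 0 of their genes passed the adjusted threshold between the sexes in the edgeR test. At an unadjusted p under 0.05 there were 2 of 7 tested BMP and GDF ligands, 1 of 11 tested target genes and 0 of the rest, where 4.42% of all tested genes passed. The 2 ligands went opposite ways, with a log2 change of 0.57 for Gdf11 and -1.29 for Bmp4, a gene named after its values were seen. Among the BMP and GDF ligands, Gdf11, which acts through Acvr2a, Acvr2b, Acvr1b and Tgfbr1, was the most abundant at 25.0 ± 7.00 RPKM (SD, n = 6). It was followed in that list by the oocyte factor Gdf9 at 1.52 ± 0.413 RPKM. Of 23 BMP and GDF ligands, 5 averaged over 1 CPM and 5 were at 0 counts in every library. Tgfb3 and Tgfb2, ligands of the TGF-beta receptors, averaged 4.61 ± 1.26 and 4.52 ± 1.68 RPKM.

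The antagonist list was led by Fstl1, a secreted follistatin-like protein, at 657 ± 43.2 RPKM and by the BMP antagonist Sostdc1 at 171 ± 66.2 RPKM, and 11 of its 17 genes averaged over 1 CPM. Of the other receptors and co-receptors, Rgmb, a BMP co-receptor first described in DRG neurons, was highest at 19.8 ± 2.91 RPKM, above all 10 receptors by mean. The decoy receptor Bambi followed at 1.14 ± 0.288 RPKM. Acvrl1 and Eng, the endothelial type I receptor and co-receptor, named here after their values were seen, were 5.13 and 3.03 CPM in male A and at most 0.640 and 0.594 CPM in the others.

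Downstream, 16 of 17 Smads and Smad regulators averaged over 1 CPM. Fkbp1a, which binds inactive type I receptors, was highest at 179 ± 89.3 RPKM, and Smad2, a substrate of Acvr1b and Tgfbr1, was at 15.6 ± 1.55 RPKM. Of the target genes, the BMP-induced transcription regulators Id2 and Id3 were highest, at 311 ± 106 and 79.6 ± 27.7 RPKM. Skil, which encodes a Smad co-repressor and is named after its values were seen, had 49.98, 142.8 and 131.7 CPM in female A, B and C, against 19.9, 17.9 and 44.9 CPM in male A, C and D. Its 3 female libraries were above all male ones, and for 8.06% of all tested genes the libraries of one sex lay above the other. The edgeR log2 change was 1.97 (SE 0.47, unadjusted p = 0.0021, adjusted p = 0.961). Its highest libraries, female B and female C, form the second record set, which has no male library. In the first record set, female A at 49.98 CPM stood close to male D at 44.9 CPM.

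**Figure D5:**
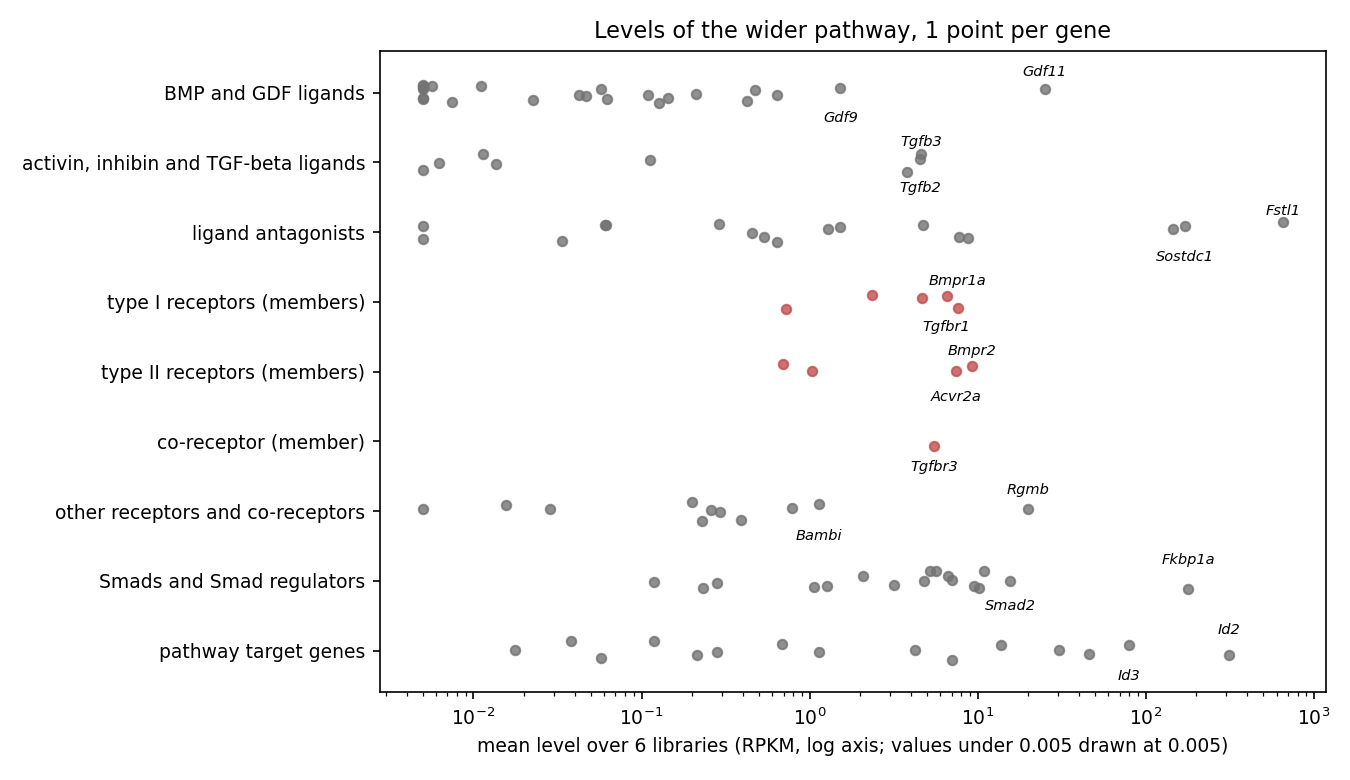
Mean level over 6 libraries in RPKM on a log axis for every gene of the pathway lists, with the 10 receptors in red and the 2 highest genes of a list named. The receptors lie between 0.695 and 9.30 RPKM, whereas the antagonist Fstl1 and the target Id2 reach 657 and 311 RPKM.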

How the data were processed

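RNA of EGFP-positive DRG cells was measured in 3 female and 3 male libraries, made per the labels' protocols from 10 ng of total RNA by SMARTer amplification of cDNA without molecular identifiers. Alignment with Subread and gene assignment with featureCounts 1.4.5 against GRCm38.p2 are named in the submitters' processing notes. The sources used here give no Subread version and do not say how strand and multi-mapped reads were handled. Raw counts and a gene length per Ensembl identifier were deposited by the authors, and 40254 of 41388 identifiers were given a symbol. The authors also deposited CPM and RPKM columns, which per the file headers stand beside the counts and were not used. Acvr2a shares 446 exon bases with Orc4 and Bmpr1a 290 with Gm17110, both on the opposite strand, and reads there cannot be told apart without strand.

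From the counts, CPM with TMM factors (0.922 to 1.08) and RPKM were computed with edgeR 4.0.16 in R 4.3.3. The sexes were compared with glmQLFTest, after filterByExpr, with sex as the only term and Benjamini-Hochberg adjustment over 14958 genes at 0.05. The biological coefficient of variation was 31.1%. DESeq2 1.42.0 and limma 3.58.1 (voom), other normalizations and filters, the record set and leaving out libraries were alternatives. The test was also run on simulated data with known changes, all larger than the receptor changes found here. That run does not show whether changes as small as those of the receptors would be found. The same replicate letters did not deviate together (correlation -0.078 for A and 0.052 for C), so letters were not used as a block. Totals were 17861500 to 29330101 counts.

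Named genes were the 10 receptors, the 2 highest of each pathway list by RPKM, the 2 highest of each marker list by CPM and the 2 genes most like each receptor. A gene that this rule names is not reported here. Ret, the reporter gene, was added for comparison, and Skil, Acvrl1, Eng and Bmp4 were named after their values were seen. The other marker lists were led by Dcn and Col1a2 (fibroblast), Fabp7 and Apoe (glia), Rgs5 and Pdgfrb (endothelial and pericyte), Fcer1g and C1qb (immune), and Hbb-bs and Hbb-bt (erythroid). The members and lists were chosen with earlier results of these data known. Near-identical stretches in transcripts of other genes were searched with blastn 2.17.0 and figures drawn with matplotlib 3.10.9.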

Additional observations from a re-analysis of the deposited data

Results flagged for a closer look

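Tgfbr3 in male A stood apart from the other libraries. It was at 76.9 CPM there, against 21.6 to 33.9 CPM in the other 5 libraries, and the gap to the nearest library was 0.644 of the whole range, above the 95% critical value of 0.625 for 6 samples. The test pooled both sexes, because groups of 3 are too small for it, and was run on 10 receptors, of which chance flags about 1 in 20. Without male A, Tgfbr3 averaged 27.6 ± 4.68 CPM (SD, n = 5). Male A also held the most fibroblast and meningeal marker transcripts, and the part of these in the Tgfbr3 level was not tested.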

How the results depend on the processing

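In all 17 alternatives 0 receptors passed the adjusted threshold between the sexes. Over all genes 4 were called, against 14 without a low-count filter, 13 with DESeq2, 1 with limma voom, 0 with the record set as a term, 0 within the first record set, and 0 (without female A) to 5 when 1 library was left out. With the replicate letter as a block 77 genes were called, and 2 of 10 receptors had an unadjusted p under 0.05, where 1019 of 14958 genes did. Bmpr2 was at 1.30 (edgeR adjusted p = 0.198), Acvr2b at 0.17 and Bmpr1a at 0.26. The letters name different embryos and do not pair the libraries. Without male D, 2 of 10 receptors had an unadjusted p under 0.05, where 1795 of 15372 genes did. The smallest edgeR adjusted p of the receptors was then 0.175. Without male C, 1 of 10 receptors had an unadjusted p under 0.05, where 787 of 15291 genes did.

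Of 170 log2 changes recomputed, 27 turned their sign, and the cause was not tested. Tgfbr1 was -0.0023 with upper quartile normalization, -0.060 with library totals and -0.032 with limma voom. Library totals shifted the median of all genes by -0.11 and gave Bmpr1b -0.0032, and limma voom gave Acvr2b 0.020. With the record set as a term Acvr1b was 0.17 and Bmpr1a 0.39, and within the first record set 0.17 and 0.39, with Bmpr1b at -0.0029. Leaving out 1 library at a time gave ranges of -0.43 to 0.27 for Tgfbr1, -0.16 to 0.12 for Acvr2b, -0.45 to 0.23 for Bmpr1a, -0.17 to 0.41 for Bmpr1b, -1.37 to 0.038 for Tgfbr2 and -0.88 to 0.10 for Tgfbr3. Without male A and male C together, an alternative chosen after seeing the data, 5 genes were called, and Acvr2a was -0.31, Bmpr2 -0.25, Tgfbr1 -0.39 and Tgfbr3 0.18.

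The 29 receptor pairs that differed per length became 0 with the longest transcript as the length, since fewer than 29 at the smallest possible p cannot pass the adjustment. Other pseudocounts gave 29, and CPM without length gave 36. Leaving out 1 library gave 29 to 39 pairs in one order. The order of levels was the same in TPM and with library totals. Levels in CPM are on another scale and were compared by rank, where Acvr2b was lowest. At 22 to 180 counts per library, Tgfbr2, Acvr2b and Bmpr1b are the receptors whose values depth limits most.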
